A study of Mus musculus with 20 samples.

Results

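Hepa1-6, an established mouse hepatoma line, was followed in culture for 10 h after addition of the cytokine TGFβ1, and the net change of these cells from their own starting point is described here. A pair of cultures exposed to 1 ng/ml TGFβ1 for 10 h were compared with 2 cultures of the same treated arm harvested at 0 h. These 4 arrays were chosen by their labels from 20 arrays in all. Cells of every group belong to 1 line of C57L strain origin, were grown with 10% fetal bovine serum, seeded 24 h ahead, washed, and held for 4 h in medium depleted of growth factors before time 0. The other arrays cover treated cultures at 1, 3 and 6 h and cultures with no TGFβ1 at 0, 1, 3, 6 and 10 h, each as biological duplicates. The labels call the 0 h sample of the treated arm equivalent to the untreated one. The difference of 10 h minus 0 h within the treated arm therefore holds the effect of TGFβ1 together with that of 10 further hours in depleted medium. A set of 2 untreated arrays at 10 h and 2 at 0 h, which shares no array with the treated comparison, was used to show which genes changed in a like way without TGFβ1.

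TGFβ1 binds the type II and type I receptor kinases Tgfbr2 and Tgfbr1, which phosphorylate Smad2 and Smad3; these enter the nucleus with Smad4, switch on target genes and, among them, the inhibitors that shut the pathway down again. In liver cells the cytokine is known as a brake on proliferation, an inducer of cell death and of an epithelial to mesenchymal shift, and a driver of matrix production. Withdrawal of growth factors is known, independently of TGFβ1, to lower insulin and ERK signalling, to free the FOXO transcription factors and to halt entry into S phase.

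RNA was measured on Affymetrix expression arrays, as log2 RMA values for 45037 probe sets, of which 34945 named exactly 1 gene. With 1 probe set kept per gene, 18193 genes were tested in 1 limma model over all 20 arrays, and a gene was called when its Benjamini-Hochberg adjusted p, taken over all genes, was under 0.05. Duplicates correlated at 0.9958 to 0.9971 over all probe sets. The medians of the tested genes lay between 6.29 and 6.35 on every array. RMA normalizes the arrays to each other, so near-equal medians cannot show whether any array stood apart. Between the treated and the untreated arm at 0 h, limma called 0 genes, and 740 genes (4.07%) had an unadjusted p under 0.05. How bright the background of these arrays is cannot be read from RMA values, and differences of genes well below the array medians may be understated. Of the hepatocyte markers, Alb (albumin) averaged 11.91 in treated cells at 10 h, against 11.98 at 0 h, and Afp (alpha-fetoprotein, made by fetal liver and hepatomas) had 12.41 and 12.46 in treated cells at 10 h, against 12.80 and 12.98 at 0 h. Ttr, Apoa1, Apoa2, Apob, Hnf4a and Ahsg had group means between 4.43 and 6.59, near or below the median gene. All 9 endothelial markers lay below the array medians, and of 9 leukocyte markers only Csf1r reached above them, with 5.83 and 6.09 in treated cells at 10 h, against 6.98 and 6.92 at 0 h. The fibroblast marker Dcn (decorin) was high in both groups, with means of 13.42 at 10 h and 13.44 at 0 h, while Col3a1, Lum, Lrat and Dpt lay between 2.60 and 3.57.

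Over the 10 h, 5099 of 18193 genes were called, 28% of those tested: 2629 (14.5%) were higher and 2470 (13.6%) were lower at 10 h. Changes of at least 2-fold were fewer, 121 genes higher (0.665%) and 92 lower (0.506%). The median difference over all genes was 0.01 on the log2 scale, with a median SE of 0.13. RMA normalizes arrays to each other, which holds this median near 0 and bears on the balance of higher and lower calls. In bulk RNA, fewer cells of a kind and less RNA in each cell cannot be told apart, and this holds for every difference given here.

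The largest rise was that of Ctla2a, a small protein that resembles the inhibitory pro-region of cathepsins, with 8.19 and 8.27 in treated cells at 10 h, against 5.48 and 6.01 at 0 h (log2 difference 2.49, SE 0.14, adjusted p 5.66e-11, 5.61-fold). Its near-identical neighbour Ctla2b had 7.21 and 7.40 in treated cells at 10 h, against 4.92 and 5.21 at 0 h, and whether the 2 probe sets read each other's transcript was not tested. Tenm4, a teneurin, that is a large transmembrane adhesion protein, had 7.86 and 7.81 in treated cells at 10 h, against 5.36 and 5.54 at 0 h (log2 difference 2.38, SE 0.14, adjusted p 1.09e-10). In each of these genes both arrays at 10 h lay well above both at 0 h, although the 0 h duplicates of Ctla2a were spread. Acsbg1, an acyl-CoA synthetase, had 7.19 and 7.29 in treated cells at 10 h, against 4.78 and 4.99 at 0 h. Dram1, a lysosomal membrane protein that promotes autophagy, had 10.47 and 10.40 in treated cells at 10 h, against 8.16 and 8.12 at 0 h, a 4.9-fold rise. Bnip3, a mitochondrial receptor for mitophagy, had 11.85 and 11.99 in treated cells at 10 h, against 9.77 and 9.52 at 0 h and was the brightest gene among the 15 largest rises at 10 h. The rest of those 15 held Tnnt2 (cardiac troponin T, 2.23), Fam210b (a mitochondrial protein, 2.17), F11 (coagulation factor XI, 2.17), Ffar4 (a receptor for long-chain fatty acids, 1.95), Col8a1 (a collagen chain, 1.70), Serpinb7 (1.66), Igfbp3 (a binding protein of insulin-like growth factors, 1.64), Mycl (a Myc relative, 1.63) and Aldoc (aldolase C, 1.52), all as log2 differences. In each of the 15 genes both arrays at 10 h lay above both arrays at 0 h, as the naming rule required.

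**Figure D1:**
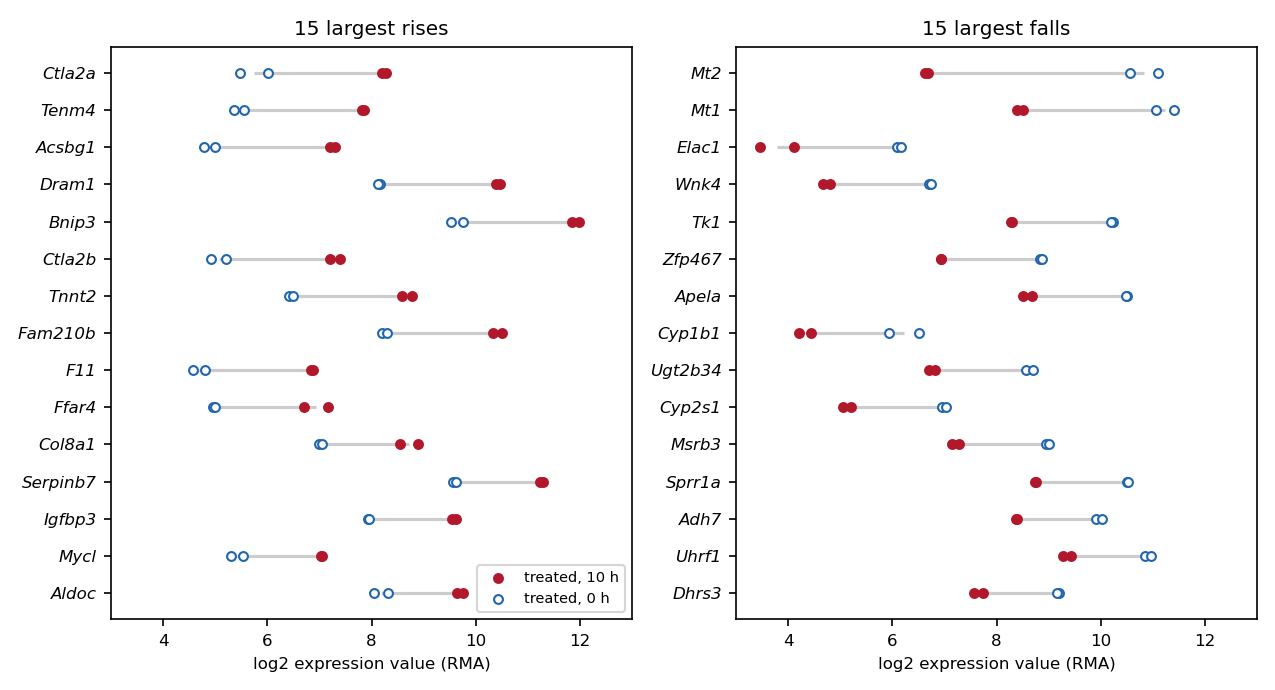
Log2 RMA expression values (horizontal axes) of the 15 genes with the largest rises and the 15 with the largest falls over 10 h in treated cells. Filled points are the 2 treated arrays at 10 h, open points the 2 treated arrays at 0 h, and a grey bar joins the group means. Mt2 lies at 6.69 and 6.62 at 10 h and at 10.55 and 11.10 at 0 h.

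The largest falls were those of the metallothioneins Mt2 and Mt1, small cysteine-rich proteins that bind zinc and copper and are switched on by the metal sensor MTF-1. Mt2 had 6.69 and 6.62 in treated cells at 10 h, against 10.55 and 11.10 at 0 h, and so fell by 4.17 on the log2 scale (SE 0.24, adjusted p 5.85e-11), which is 18.1-fold lower. Mt1 had 8.39 and 8.52 in treated cells at 10 h, against 11.06 and 11.41 at 0 h, and fell by 2.79 (SE 0.20, adjusted p 1.02e-09), 6.9-fold lower; a second Mt1 probe set, on average dimmer, differed by 0.37 and was not called. In treated cells both genes held their level at first: the mean of Mt2 was 10.83, 10.77, 11.26, 8.94 and 6.65 at 0, 1, 3, 6 and 10 h. In untreated cells Mt2 was lower by 3 h, with means of 10.90, 10.94, 10.00, 8.22 and 6.51 at the same times. Both genes fell without TGFβ1 as well (log2 differences -4.39 for Mt2 and -2.42 for Mt1), and the 10 h changes of the 2 arms were not called different (log2 difference 0.21, adjusted p 0.864 for Mt2; -0.37, adjusted p 0.639 for Mt1).

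MTF-1 binds metal response elements, whose core is written TGCACNC or TGCGCNC. Both cores were searched on both strands of the RefSeq promoter windows (build GRCm38.p6, 250 bases before to 50 after each annotated start). Of the 27025 genes with a window, 28.2% hold at least 1 core. These genes outnumber the 18193 tested, and a gene with several windows counts if any of them holds a match. Both points apply to the later motif searches too. The windows of the 2 genes, which neighbour each other on the plus strand of chromosome 8, are shown with the cores in capitals, because these genes fell furthest. Mt2 (chr8:94172368-94172667) holds 4 cores, 2 on each strand, and Mt1 (chr8:94178839-94179138) holds 3, all on the strand shown. No cores overlap, and a match is a description of letters only.
Mt2: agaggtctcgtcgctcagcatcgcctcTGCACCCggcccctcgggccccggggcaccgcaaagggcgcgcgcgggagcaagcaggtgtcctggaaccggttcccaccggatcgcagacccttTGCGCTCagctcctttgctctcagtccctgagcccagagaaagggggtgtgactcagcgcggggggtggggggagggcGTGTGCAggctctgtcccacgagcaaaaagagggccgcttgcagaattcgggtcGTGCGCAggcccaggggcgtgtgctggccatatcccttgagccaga
Mt1: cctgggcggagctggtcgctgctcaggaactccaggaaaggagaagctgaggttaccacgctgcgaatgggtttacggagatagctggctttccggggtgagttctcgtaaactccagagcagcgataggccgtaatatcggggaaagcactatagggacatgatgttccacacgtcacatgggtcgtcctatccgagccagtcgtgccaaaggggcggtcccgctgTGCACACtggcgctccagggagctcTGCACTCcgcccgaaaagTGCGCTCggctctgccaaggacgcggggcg

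The list that holds these 2 genes, the targets of the oxidative stress factor NRF2 with the metallothioneins, had 16 measured members. None was called higher and 11 were lower (68.8%, beside 13.6% of all genes), with a median of -0.48 against 0.01 for all genes. Nqo1, a quinone reductase, had 8.29 and 8.34 in treated cells at 10 h, against 9.76 and 9.78 at 0 h (-1.46, SE 0.06, adjusted p 4.11e-13). Gclm and Gclc, the subunits of the enzyme that limits glutathione synthesis, fell by 0.81 and 0.89, the glutathione reductase Gsr by 0.81, and the cystine importer subunit Slc7a11 by 0.71. The haem oxygenase Hmox1 (-0.02), the thioredoxin reductase Txnrd1 (-0.01) and the zinc exporter Slc30a1 (0.07) were not called. In untreated cells 1 member was higher and 8 were lower, with a median of -0.34; the fall of Nqo1 was larger in treated cells (-1.46 against -0.87, adjusted p of the difference 1.69e-04).

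The other large falls were spread over several kinds of gene. Tk1, the thymidine kinase of S phase, had 8.27 and 8.29 in treated cells at 10 h, against 10.24 and 10.19 at 0 h (-1.94, SE 0.07, adjusted p 3.21e-13). Cyp1b1 (-1.90), Cyp2s1 (-1.87) and, among the members of the cytochrome P450 list, Cyp1a1 (-1.43) are known targets of the aryl hydrocarbon receptor. Adh7 (an alcohol dehydrogenase active on retinol, -1.59) and Dhrs3 (a retinaldehyde reductase, -1.53) act in retinoid metabolism. Ugt2b34, a glucuronosyltransferase, fell by 1.87, Msrb3, a methionine sulfoxide reductase, by 1.77, the secreted receptor ligand Apela by 1.91, the cornified envelope protein Sprr1a by 1.77, the kinase Wnk4 by 1.99 and the zinc finger protein Zfp467 by 1.92. Elac1, an RNase Z family enzyme, fell by 2.33, though with 3.46 and 4.11 at 10 h it lay far below the array medians. Probe sets of a gene did not always give the same answer: 1 of 3 was called for Mycl, 1 of 2 for Aldoc and for Fdps of the sterol list, and 2 of 3 for Cyp1b1. Among genes described further on, 1 of 2 was called for Fosl2, Plat and Pdgfb, 2 of 4 for Rbl1, and 2 of 6 for Nr2f2. These are examples, and no gene named by the rule had probe sets called both ways.

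The change over 10 h was then set beside that of untreated cells, whose 4 arrays are different ones. In untreated cells 4742 genes were called (26.1%), 2411 higher (13.3%) and 2331 lower (12.8%), and the median difference over all genes was 0.03. Of the 2629 genes higher in treated cells, 1676 were also higher in untreated cells, which is 63.8% of the treated calls and 69.5% of the untreated calls. Of the 2470 lower genes, 1647 were also lower, 66.7% and 70.7% of the 2 sets of calls. Genes called in opposite directions were few, 34 higher and 43 lower in treated cells. Across the 18193 genes the 2 sets of log2 differences had a Pearson correlation of 0.67, given as a description, since genes are not independent and share the arrays' normalization.

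The difference of the 2 changes, tested as treated minus untreated, was called for 707 genes (3.89%), 340 above 0 (1.87%) and 367 below 0 (2.02%). This count depended on single libraries: it was 423 without treated 0 h replicate 1, 365 without treated 10 h replicate 1, 432 without untreated 0 h replicate 2, and 428 without either untreated array at 10 h. Among genes with a called difference, the 6 largest rises in treated cells were named, ranked by the treated change and not by the difference. They were Ctla2a (2.49 in treated and -0.03 in untreated cells), Ctla2b (2.24 and -0.08), Tnnt2 (2.23 and -0.18), Dram1 (2.29 and 0.13), Tenm4 (2.38 and 0.26) and Acsbg1 (2.36 and 0.57). The adjusted p of the difference was 8.62e-08 for Ctla2a and 1.01e-05 for Acsbg1. Among genes that fell, Apela, Sprr1a, Dhrs3, Tk1 and Msrb3 fell in both arms and further in treated cells, for instance Sprr1a (-1.77 in treated and -0.78 in untreated cells, adjusted p of the difference 3.91e-05). The matching set with no difference called held Bnip3, Ffar4, Mvd, Stard9, Galnt18 and Ak4 among rises, and Mt2, Mt1, Elac1, Wnk4, Zfp467 and Cyp1b1 among falls.

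Genes that went opposite ways were led by Fam210b, which had 10.51 and 10.34 in treated cells at 10 h, against 8.21 and 8.30 at 0 h, whereas untreated cells had 7.63 and 7.68 at 10 h, against 8.42 and 8.28 at 0 h (log2 difference of the changes 2.87, SE 0.10, adjusted p 2.95e-13). Nrep, a small protein of regenerating neurons and myofibroblasts, had 8.07 and 8.04 in treated cells at 10 h, against 7.18 and 7.31 at 0 h, and in untreated cells 5.79 and 5.94 at 10 h, against 7.25 and 7.30 at 0 h. The groups were separate in both arms, and the log2 difference was 0.81 with TGFβ1 and -1.41 without it. Ccn2 (1.36 and -0.79), Serpinb7 (1.66 and -0.40) and Skil (1.48 and -0.20) likewise rose in treated and fell in untreated cells. Myot, the muscle protein myotilin, fell in treated cells by 0.60 and changed by 0.97 in untreated cells, at levels below the array medians except in untreated cells at 10 h.

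**Figure D2:**
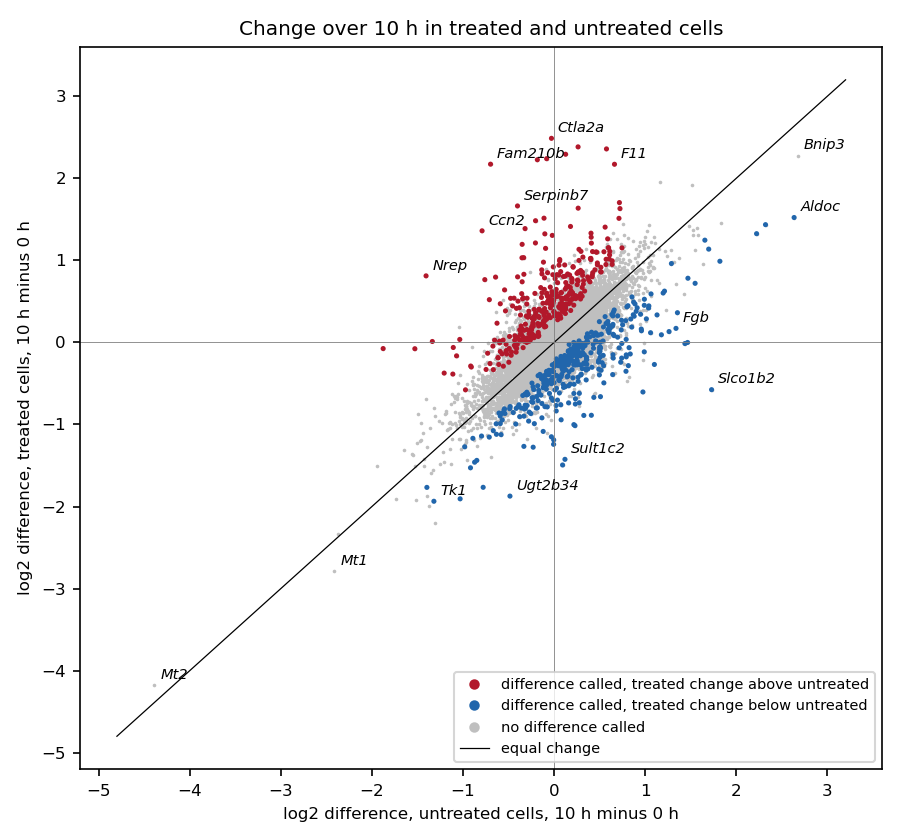
Log2 difference between 10 h and 0 h for 18193 genes, in treated cells on the vertical axis and in untreated cells on the horizontal axis. Red points mark 340 genes and blue points 367 genes whose change was called different between the arms; the line marks equal change. Mt2 and Mt1 lie near the line at the lower left, and Fam210b, Ccn2 and Nrep lie above 0 for treated and below 0 for untreated cells.

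Genes of DNA replication fell almost as a whole. Of 39 measured members of the G1/S and DNA replication list, 36 were called lower and none higher, with a median of -0.61. The share lower was 92.3%, beside 13.6% of all genes. Tk1 led, followed by Uhrf1, which maintains DNA methylation at replication forks, with 9.27 and 9.42 in treated cells at 10 h, against 10.85 and 10.96 at 0 h (-1.56, SE 0.07, adjusted p 6.09e-13). Mcm5, a subunit of the replicative helicase, had 10.82 and 10.84 in treated cells at 10 h, against 11.99 and 12.01 at 0 h (-1.17, SE 0.05, adjusted p 3.21e-13). Rrm2, the ribonucleotide reductase subunit of S phase, had 11.30 and 11.28 in treated cells at 10 h, against 12.12 and 12.18 at 0 h (-0.86, SE 0.04, adjusted p 1.09e-11). In these genes the duplicates lay close together and the groups were well apart. Cdc6, which loads the helicase, fell by 1.30, E2f8, a repressor of the E2F family, by 1.18, and the helicase subunits Mcm2, Mcm3, Mcm4, Mcm6 and Mcm7 by 0.21 to 0.77. E2f1, E2f2 and Tyms were the 3 members not called. Untreated cells had 35 members lower and 1 higher, with a median of -0.42. The change was called lower in treated than in untreated cells for 8 members. Tk1 (-1.94 against -1.32, adjusted p of the difference 0.00102), Mcm5 (-1.17 against -0.89, 0.0173), Rrm2 (-0.86 against -0.60, 0.0218), Gins1, Rfc2, Rfc5 and Prim1 fell further with TGFβ1. The 8th was E2f1, at 0.17 in treated and 0.61 in untreated cells.

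E2F factors are known to bind TTTGGCGC and TTTCCCGC. A promoter window was available for 32 of the 39 members, and 11 of these (34.4%) hold 1 of the 2 words on either strand, against 1.8% of all genes with a window. They are Cdc6, Cdt1, E2f2, Gins3, Mcm3, Mcm5, Mcm6, Mcm7, Pola1, Pold1 and Rfc3, all called lower except E2f2. The window of Mcm6 (chr1:128359656-128359955, minus strand, printed in the direction of transcription) is shown because it holds TTTGGCGC 2 times, in capitals, without overlap; Mcm6 fell by 0.48 (SE 0.04, adjusted p 3.24e-08).
Mcm6: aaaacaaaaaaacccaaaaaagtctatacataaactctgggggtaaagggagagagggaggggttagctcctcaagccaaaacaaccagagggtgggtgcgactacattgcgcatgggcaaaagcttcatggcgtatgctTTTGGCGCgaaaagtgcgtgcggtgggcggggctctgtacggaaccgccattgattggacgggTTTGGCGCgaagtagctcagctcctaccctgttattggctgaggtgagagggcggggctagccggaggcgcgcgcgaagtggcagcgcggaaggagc

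Of 38 measured G2/M members, 17 were lower (44.7%) and 4 higher (10.5%), with a median of -0.15. Among all genes 13.6% were lower and 14.5% higher. Birc5 (survivin) had 10.55 and 10.56 in treated cells at 10 h, against 11.32 and 11.29 at 0 h, a fall by 0.75. Nuf2, a kinetochore protein, fell by 0.71, cyclin A2 (Ccna2) by 0.65 and the kinase Aurkb by 0.64. Cdc20, Tpx2, Cenpe and Pttg1, all of them mitotic, were the 4 higher ones, by at most 0.22. Without a variance trend in the model the list had 13 calls in place of 21. In untreated cells 9 members were lower and 9 higher.

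Among 22 regulators of the G1 phase, 11 were higher (50%) and 3 lower (13.6%), beside 14.5% and 13.6% of all genes. In untreated cells 10 were higher and 3 lower. The CDK inhibitor Cdkn2b (p15), a known TGFβ target, had 10.50 and 10.49 in treated cells at 10 h, against 9.70 and 9.59 at 0 h (0.85, SE 0.06, adjusted p 6.43e-10), with group means in treated cells of 9.64, 10.26, 10.89, 10.80 and 10.50 at 0, 1, 3, 6 and 10 h. It also rose in untreated cells, by 0.70, and the difference was not called (adjusted p 0.435). Cdkn1a (p21, 0.59), Cdkn1b (p27, 0.48) and the retinoblastoma gene Rb1 (0.69) rose as well. Mxd4, a repressor that competes with Myc for Max, had 9.05 and 9.20 in treated cells at 10 h, against 8.02 and 7.91 at 0 h (1.16, SE 0.09, adjusted p 2.63e-09), and its relatives Mnt (0.80) and Mxi1 (0.77) rose too. Rbl1 (p107), a pocket protein that is itself an E2F target, fell by 1.24, and the CDK inhibitor Cdkn2c (p18) by 0.62. In untreated cells the means of Mxd4 were 7.96 at 0 h and 8.98 at 10 h, and those of Rbl1 were 10.27 and 9.29. The change of Cdkn2c differed from that in untreated cells (-0.05, adjusted p of the difference 8.65e-06). Myc itself rose by 0.48, against -0.12 in untreated cells (adjusted p of the difference 6.31e-05).

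All 20 measured genes of sterol synthesis and its regulator SREBP2 were called higher, beside 14.5% of all genes, with a median of 0.82. Fdps, which makes farnesyl diphosphate, had 11.67 and 11.64 in treated cells at 10 h, against 10.40 and 10.31 at 0 h (1.31, SE 0.06, adjusted p 4.82e-12). Dhcr7, the last enzyme of cholesterol synthesis, had 9.98 and 10.03 in treated cells at 10 h, against 8.70 and 8.70 at 0 h (1.31, SE 0.07, adjusted p 1.09e-11). Fdft1 (squalene synthase) had 11.29 and 11.32 in treated cells at 10 h, against 10.23 and 10.10 at 0 h (1.14, SE 0.06, adjusted p 9.49e-12), and Hsd17b7 had 8.98 and 8.88 in treated cells at 10 h, against 7.78 and 7.82 at 0 h (1.13, SE 0.07, adjusted p 5.66e-11). Every array at 10 h exceeded every array at 0 h by a wide margin in these genes. The widest rise of the list was that of Mvd, mevalonate decarboxylase (1.46, SE 0.18), whose 0 h duplicates were 6.89 and 6.27, and the smallest that of Ebp (0.23). Untreated cells had 19 members higher with a median of 1.10, and the treated rise was called smaller for 3 members: Pmvk (0.78 against 1.47), Tm7sf2 (1.14 against 1.70) and Ebp (0.23 against 0.57).

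SREBP2 binds sterol regulatory elements, a form of which is TCACNCCAC. Of the 20 genes 16 had a promoter window, and only that of Hmgcs1 (6.25%) holds this word on either strand, against 1.44% of all genes with a window. Hmgcs1, which makes HMG-CoA, had 11.83 and 11.80 in treated cells at 10 h, against 11.11 and 11.01 at 0 h, and its window (chr13:119690101-119690400, plus strand) is shown with the word in capitals.
Hmgcs1: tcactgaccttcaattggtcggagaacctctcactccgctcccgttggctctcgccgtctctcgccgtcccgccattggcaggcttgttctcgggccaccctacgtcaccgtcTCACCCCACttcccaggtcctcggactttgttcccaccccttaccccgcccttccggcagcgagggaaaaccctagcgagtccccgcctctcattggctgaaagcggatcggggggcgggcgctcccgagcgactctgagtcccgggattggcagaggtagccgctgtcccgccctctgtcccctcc

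Of 20 genes of fatty acid synthesis and desaturation, 11 were higher (55%) and 3 lower (15%), with a median of 0.29. Among all genes 14.5% were higher and 13.6% lower. The desaturase Fads2 had 10.26 and 10.15 in treated cells at 10 h, against 9.22 and 9.21 at 0 h (0.99, SE 0.06, adjusted p 2.95e-10), and Fads1 rose by 0.56. The cytosolic suppliers of acetyl-CoA also rose, Acly by 0.57 and Acss2 by 0.99, as did fatty acid synthase, Fasn, by 0.36. The transcription factors of the pathway were on the other side: Mlxipl (ChREBP) fell by 0.45 and Srebf1 by 0.26. Srebf1 differed from untreated cells, where it changed by 0.11 (adjusted p of the difference 0.00164), while Fads2, Fads1 and Acly did not (adjusted p 0.791, 0.569 and 0.957).

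The list of the hypoxia response and glycolysis had 26 genes, many of them targets of the factor HIF-1. Of these 13 were higher (50%) and 1 lower (3.85%), beside 14.5% and 13.6% of all genes, with a median of 0.19. Bnip3 rose 4.85-fold (2.28, SE 0.09, adjusted p 3.21e-13). Aldoc had 9.65 and 9.76 in treated cells at 10 h, against 8.32 and 8.04 at 0 h (1.52, SE 0.08, adjusted p 1.42e-11). Egln3, an oxygen sensor that marks HIF for destruction, had 10.55 and 10.51 in treated cells at 10 h, against 9.78 and 9.65 at 0 h, and Ddit4, an inhibitor of mTOR signalling, had 11.69 and 11.75 in treated cells at 10 h, against 10.88 and 10.87 at 0 h. In both genes the arrays at 10 h lay above those at 0 h. Ankrd37 (1.44), the growth factor Vegfa (0.94), the glucose transporter Slc2a1 (0.74) and hexokinase 2 (Hk2, 0.72) also rose. The core enzymes Ldha, Pgk1, Pgam1 and Pkm were not called. Untreated cells had 16 members higher and none lower, with a median of 0.26. The change was called lower in treated than in untreated cells for 4 members: Aldoc (1.52 against 2.63, adjusted p of the difference 1.97e-06), Ankrd37 (1.44 against 2.32), Aldoa (0.21 against 0.60) and Ldha (-0.03 against 0.17). That of Bnip3 was not (-0.40, adjusted p 0.0928).

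HIF-1 binds the core ACGTG. This short core occurs in the windows of 20 of the 25 list members with a window (80%), against 21.8% of all genes with a window. The window of Bnip3 (chr7:138909457-138909756, minus strand, printed in the direction of transcription) is shown because Bnip3 rose furthest in the list. Its 2 matches, 1 on each strand, overlap in the capitals.
Bnip3: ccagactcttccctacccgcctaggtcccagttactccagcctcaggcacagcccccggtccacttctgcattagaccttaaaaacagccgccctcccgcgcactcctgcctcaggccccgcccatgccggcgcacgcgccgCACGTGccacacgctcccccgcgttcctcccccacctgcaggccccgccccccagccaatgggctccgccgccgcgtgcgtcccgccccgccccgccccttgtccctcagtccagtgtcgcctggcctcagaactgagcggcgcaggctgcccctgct

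Of 25 genes that FOXO factors and insulin signalling control, 13 were higher, 1 was lower and 11 were not called, with a median of 0.32. The shares were 52% higher and 4% lower, beside 14.5% and 13.6% of all genes. Ccng2, a cyclin of quiescent cells, had 10.95 and 11.02 in treated cells at 10 h, against 9.76 and 9.77 at 0 h (1.22, SE 0.05, adjusted p 3.21e-13). Txnip, an inhibitor of glucose uptake, had 10.90 and 10.76 in treated cells at 10 h, against 9.71 and 9.84 at 0 h (1.05, SE 0.07, adjusted p 2.19e-10), after group means of 9.78, 8.99, 9.20, 10.12 and 10.83 at 0, 1, 3, 6 and 10 h, so that an early dip preceded its rise. Sesn3 rose by 0.66, Foxo3 by 0.79, the insulin receptor Insr by 0.64 and the ubiquitin ligase Fbxo32 by 1.04. Untreated cells had 13 members higher and 2 lower. Fbxo32 rose further with TGFβ1 (1.04 against 0.32, adjusted p of the difference 0.0249), as did the repressor Bcl6 (0.76 against 0.20, 0.0288).

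Of 24 targets of p53, 15 were higher (62.5%) and 3 lower (12.5%), beside 14.5% and 13.6% of all genes, with a median of 0.34. Pmaip1 (Noxa), a BH3-only cell death protein, had 10.88 and 10.77 in treated cells at 10 h, against 9.78 and 9.91 at 0 h (0.98, SE 0.07, adjusted p 1.14e-09), and Btg2, an anti-proliferative protein, had 10.90 and 10.87 in treated cells at 10 h, against 10.11 and 10.11 at 0 h (0.77, SE 0.07, adjusted p 1.88e-08). The list median difference from 0 h in treated cells was -0.06 at 1 h, -0.25 at 3 h and 0.15 at 6 h. In Pmaip1 the means were 9.85, 9.85, 9.38, 10.30 and 10.83 at 0, 1, 3, 6 and 10 h with TGFβ1, and 9.85, 9.82, 10.12, 10.43 and 10.82 without it. Trp53inp1 rose by 0.53 and Zmat3 by 0.61. The death receptor Fas changed by -0.40 in treated and by 0.29 in untreated cells (adjusted p of the difference 0.00636). Untreated cells had 17 members higher and 1 lower, and no other member differed between the arms.

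In the BCL2 family, 7 of 17 members were higher (41.2%) and 2 lower (11.8%), beside 14.5% and 13.6% of all genes. Untreated cells had 6 members higher and 5 lower. Bcl2l11 (Bim), a BH3-only protein, had 10.32 and 10.22 in treated cells at 10 h, against 9.36 and 9.50 at 0 h (0.84, SE 0.08, adjusted p 1.02e-07), and it rose further than in untreated cells (0.25, adjusted p of the difference 0.00488). Its means were 9.43, 11.20, 10.61, 10.26 and 10.27 at 0, 1, 3, 6 and 10 h, highest at 1 h. Bmf, a further BH3-only protein, went opposite ways, at 0.42 in treated and -0.38 in untreated cells (adjusted p of the difference 1.69e-04). The pore-forming Bak1 fell by 0.52 and the protective Mcl1 by 0.24, while Bcl2 (-0.07) and Bcl2l1 (0.03) were not called.

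Lysosome and autophagy genes had 15 of 27 members higher (55.6%) and 3 lower (11.1%), beside 14.5% and 13.6% of all genes. Apart from Dram1, the sialidase Neu1 had 8.46 and 8.48 in treated cells at 10 h, against 7.47 and 7.52 at 0 h (0.98, SE 0.08, adjusted p 3.25e-09), the sterol carrier Npc2 had 12.46 and 12.55 in treated cells at 10 h, against 11.85 and 11.84 at 0 h, and the autophagosome protein Map1lc3a had 11.25 and 11.27 in treated cells at 10 h, against 10.69 and 10.69 at 0 h. Cathepsins Ctsd (0.37) and Ctsl (0.42) and the acid lipase Lipa (0.90) rose as well, and the autophagy receptor Sqstm1 fell by 0.37. Untreated cells had 15 higher and 2 lower, and Dram1 was the member with the widest difference between the arms. Among 18 clock genes 4 rose (22.2%) and 1 fell (5.56%), beside 14.5% and 13.6% of all genes. Rora rose by 1.20, Nfil3 by 0.84, Arntl by 0.74 and Bhlhe40 by 1.00, whereas Cry1 fell by 0.61. More clock genes were called in untreated cells, 10 higher and 2 lower, with a median of 0.29 against 0.08 in treated cells.

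**Figure D3:**
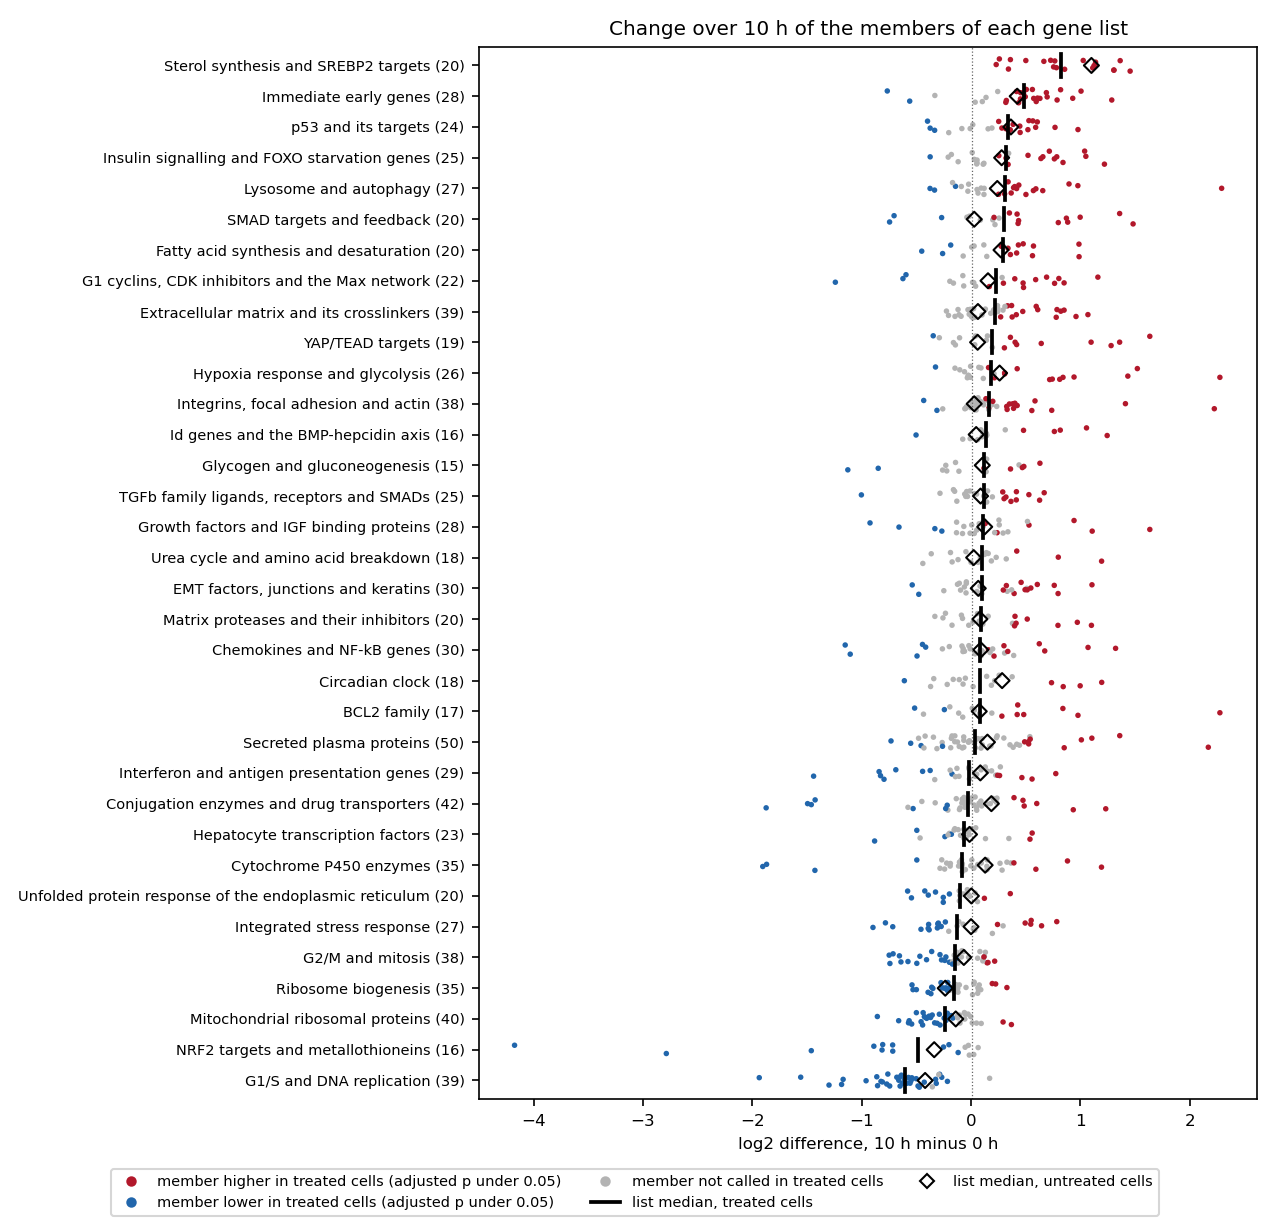
Log2 difference between 10 h and 0 h (horizontal axis) for each measured member of 34 gene lists, with the number measured in brackets. Points are members in treated cells, red where called higher, blue where called lower and grey where not called; bars mark list medians in treated cells and diamonds those in untreated cells. The sterol list has its median at 0.82 and the G1/S list at -0.61, and for both the untreated median lies on the same side of 0.

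Of 20 measured direct targets of the SMAD proteins and feedback regulators, 11 were higher (55%) and 3 lower (15%), with a median of 0.31. Among all genes 14.5% were higher and 13.6% lower. In untreated cells 6 members of the list were higher and 4 lower, with a median of 0.03. The list median in treated cells, as the difference from 0 h, was 0.41 at 1 h, 0.68 at 3 h and 0.37 at 6 h, and over all genes the medians of these differences were -0.01, -0.01 and 0.00. Skil (SnoN), a repressor that binds SMADs, had 10.00 and 9.88 in treated cells at 10 h, against 8.49 and 8.43 at 0 h (1.48, SE 0.07, adjusted p 4.82e-12). Ccn2 (connective tissue growth factor) had 11.78 and 11.74 in treated cells at 10 h, against 10.36 and 10.44 at 0 h (1.36, SE 0.06, adjusted p 4.71e-13). Both groups were far apart in each gene, yet the means of Ccn2 were 10.40, 13.09, 13.26, 12.74 and 11.76 at 0, 1, 3, 6 and 10 h and those of Skil were 8.46, 10.48, 11.07, 10.54 and 9.94, so that each had come down from its maximum at 3 h. Klf10, a repressor first described as a TGFβ early gene, had 9.06 and 9.05 in treated cells at 10 h, against 8.11 and 8.23 at 0 h, and its means were 8.17, 11.67, 9.73, 9.11 and 9.06 over the same times, with the maximum at 1 h. Bhlhe40 had 9.16 and 9.13 in treated cells at 10 h, against 8.14 and 8.16 at 0 h and means of 8.15, 11.13, 10.83, 10.37 and 9.15. Smad7, the inhibitory SMAD, had 8.71 and 8.80 in treated cells at 10 h, against 8.28 and 8.39 at 0 h (0.42, SE 0.07, adjusted p 7.50e-05), after 8.33, 10.74, 9.74, 9.10 and 8.76 over the course.

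On the lower side of this list, Bambi, a decoy receptor, had 7.38 and 7.48 in treated cells at 10 h, against 8.04 and 8.23 at 0 h (-0.70, SE 0.10, adjusted p 7.53e-06), and untreated cells changed by 0.04 (adjusted p of the difference 0.00231). Tgfbi fell by 0.74, and Tgif2 by 0.27. Pmepa1, Ltbp2, Tgfb1, Ski, Smad6 and Spsb1 were the 6 members not called. Pmepa1 and Ltbp2 were dim, with treated means of 4.39 and 3.21 at 10 h and 4.43 and 3.22 at 0 h. A change of these 2 genes could have been missed. The difference between the arms was called above 0 for 6 members (Ccn2, Skil, Ldlrad4, Bhlhe40, Klf10 and Smad7) and below 0 for Bambi.

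Among 25 ligands, receptors and SMADs of the TGFβ family, 9 were higher (36%) and 1 lower (4%), beside 14.5% and 13.6% of all genes. In untreated cells 5 were higher and 2 lower. Fst (follistatin), which traps activins, had 10.74 and 10.68 in treated cells at 10 h, against 9.99 and 10.09 at 0 h (0.67, SE 0.06, adjusted p 2.55e-08). The type II receptor Tgfbr2 had 10.39 and 10.25 in treated cells at 10 h, against 9.95 and 9.87 at 0 h (0.42, SE 0.05, adjusted p 3.33e-06), a call that rested on 1 of 3 probe sets and was lost with the mean of the probe sets (0.11). Smad2 rose by 0.41, Smad3 by 0.37, Smad1 by 0.30 and Smad4 by 0.29. Without TGFβ1 the means at 0 h and 10 h were 9.62 and 9.87 for Smad2, and 9.03 and 9.31 for Smad3. Those of Smad1 were 10.14 and 10.21, and those of Smad4 were 10.53 and 10.62. The co-receptor Tgfbr3 (betaglycan) went the other way, with 6.59 and 6.58 in treated cells at 10 h, against 7.52 and 7.65 at 0 h (SE of the log2 difference 0.10, adjusted p 1.34e-07), while untreated cells changed by 0.22 (adjusted p of the difference 1.28e-05); a second probe set of Tgfbr3 was not called. Tgfbr1 (-0.15) and the ligands Tgfb1, Tgfb2 and Tgfb3 were not called.

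The Id genes are known targets of BMP signalling, and their products block helix-loop-helix transcription factors. Id1, Id2 and Id3 rose in both arms, and Id4, which was dim, was not called in either. Id1 had 11.98 and 11.99 in treated cells at 10 h, against 10.91 and 10.95 at 0 h (1.06, SE 0.05, adjusted p 1.14e-12), Id3 had 10.33 and 10.46 in treated cells at 10 h, against 9.10 and 9.20 at 0 h (1.25, SE 0.07, adjusted p 2.66e-11) and Id2 had 10.35 and 10.40 in treated cells at 10 h, against 9.53 and 9.69 at 0 h (0.76, SE 0.10, adjusted p 2.78e-06). With TGFβ1 the means of Id1 were 10.93, 12.92, 11.89, 11.52 and 11.99 at 0, 1, 3, 6 and 10 h, and those of Id3 were 9.15, 11.21, 9.21, 8.87 and 10.39. Without it the means of Id1 were 10.93, 11.13, 11.47, 11.69 and 11.85 and those of Id3 were 9.07, 9.41, 9.95, 10.27 and 10.73, with no peak at 1 h. At 10 h the rise of Id3 was smaller with TGFβ1 (1.25 against 1.66, adjusted p of the difference 0.0167), and for Id1 and Id2 no difference was called (adjusted p 0.338 and 0.74). Of the 16 members of the list, Bmp4 (0.82) and the receptor Bmpr2 (0.48) were the other genes that rose, and Hfe, an iron regulator, fell by 0.50.

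**Figure D4:**
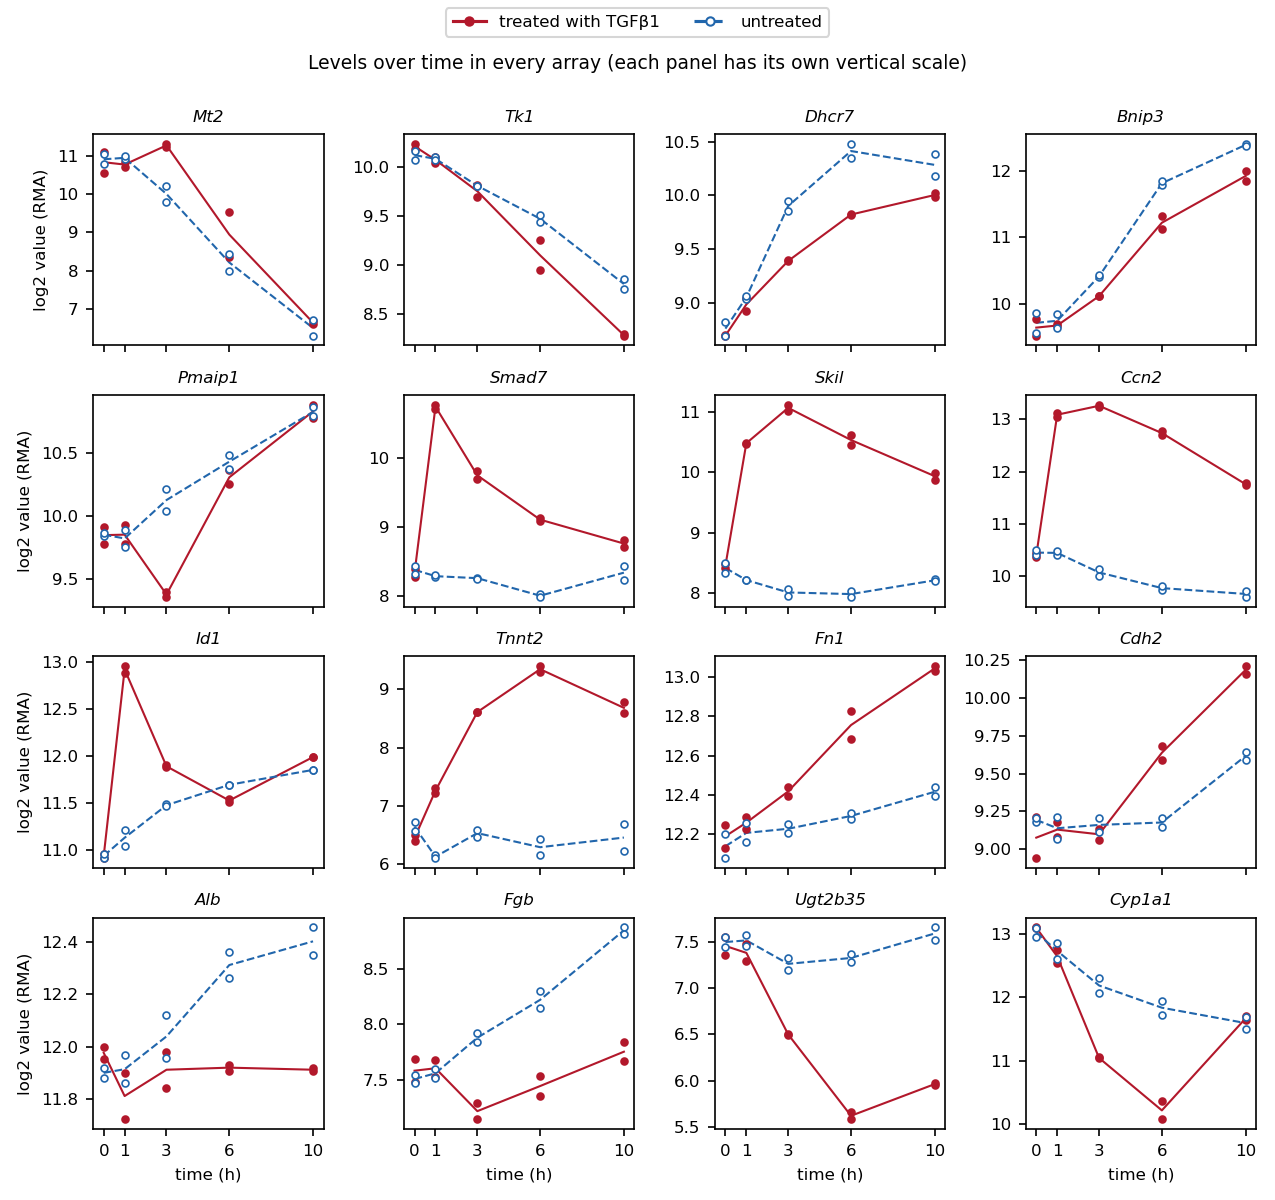
Log2 RMA values (vertical axes, a scale for each panel) of 16 genes at 0, 1, 3, 6 and 10 h, chosen after their values were seen to show the kinds of course described. Filled points and solid lines are arrays and means of treated cells, and open points and dashed lines those of untreated cells. Ccn2 and Skil have come down by 10 h from a maximum at 3 h, and Fn1 and Cdh2 are highest at 10 h. Mt2 falls in both arms, and is below its start by 3 h without TGFβ1 but only by 6 h with it.

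Immediate early genes are switched on within minutes by growth factors and stress. At 10 h 21 of 28 were higher (75%) and 2 lower (7.14%), beside 14.5% and 13.6% of all genes, with a median of 0.49. Fosl2, an AP-1 subunit, had 9.52 and 9.47 in treated cells at 10 h, against 8.12 and 8.30 at 0 h (1.29, SE 0.07, adjusted p 7.09e-11). Ier3 rose by 0.69, the ERK phosphatase Dusp6 by 0.57, the anti-proliferative Btg1 by 0.63, Junb by 1.01 and Egr1 by 0.70. Klf2 fell by 0.77 and Dusp5 by 0.56. Untreated cells had 19 higher, 1 lower and a median of 0.42, and the arms differed in 3 members: Jun (0.82 against 0.42), Fos (0.32 against 0.88) and Dusp5 (-0.56 against 0.03).

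Targets of YAP and TEAD, the effectors of the Hippo pathway, had 9 of 19 members higher (47.4%) and 1 lower (5.26%). Among all genes 14.5% were higher and 13.6% lower. Untreated cells had 4 members of the list higher and 4 lower. Igfbp3 had 9.62 and 9.54 in treated cells at 10 h, against 7.93 and 7.95 at 0 h (1.64, SE 0.07, adjusted p 6.09e-13). Ccn1, a matricellular protein, had 8.97 and 8.92 in treated cells at 10 h, against 7.72 and 7.60 at 0 h (1.28, SE 0.09, adjusted p 1.13e-09), and Ankrd1 had 9.89 and 9.83 in treated cells at 10 h, against 8.80 and 8.72 at 0 h (1.10, SE 0.06, adjusted p 2.81e-11). The difference between the arms was called above 0 for 7 members and below 0 for none. Those called were Ccn2 and Nuak2, of which the second was not called in treated cells (-0.14 against -0.52), with Igfbp3, Ccn1, Ankrd1, Amotl2 and Ajuba. Ccn2 is a member of this list and of the SMAD list.

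Of 39 matrix genes 14 were higher (35.9%, against 14.5% of all genes), none was lower and 25 were not called, and in untreated cells 8 were higher and 2 lower. Fn1 (fibronectin) had 13.05 and 13.03 in treated cells at 10 h, against 12.13 and 12.25 at 0 h (0.85, SE 0.05, adjusted p 1.59e-10), and its means climbed with TGFβ1 through 12.19, 12.26, 12.42, 12.76 and 13.04 at 0, 1, 3, 6 and 10 h. Thbs1 (thrombospondin 1), which activates latent TGFβ, had 11.60 and 11.58 in treated cells at 10 h, against 10.73 and 10.89 at 0 h (0.78, SE 0.05, adjusted p 1.30e-10). For both the rise exceeded that of untreated cells (0.28 for Fn1 and 0.19 for Thbs1, adjusted p of the differences 5.26e-05 and 9.90e-06). The collagen prolyl hydroxylases P4ha1 (0.96) and P4ha2 (1.07) also rose without TGFβ1 (1.29 and 1.09), and there P4ha1 rose further (adjusted p of the difference 0.0217). Col1a1 had 5.55 and 4.90 in treated cells at 10 h, against 4.42 and 4.38 at 0 h (0.82, SE 0.18, adjusted p 0.0014), and the basement membrane chain Lamb1 had 9.03 and 8.72 in treated cells at 10 h, against 8.01 and 8.18 at 0 h (0.79, SE 0.13, adjusted p 6.64e-05). Col4a1 (0.34 against -0.28) and Col7a1 (0.60 against -0.21) likewise differed between the arms, while the crosslinking enzymes Lox, Loxl1, Loxl3 and Loxl4 were not called.

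Of 20 matrix proteases and inhibitors, 7 were higher (35%, beside 14.5% of all genes) and none lower. In untreated cells 5 were higher and 3 lower. Plat, the tissue plasminogen activator, had 11.28 and 11.14 in treated cells at 10 h, against 10.06 and 10.15 at 0 h (1.10, SE 0.06, adjusted p 2.86e-11), and the rise exceeded that of untreated cells (0.46, adjusted p of the difference 6.85e-05). Adamts4, which cuts aggrecan, rose by 0.97, Mmp14, a membrane-bound collagenase, by 0.40, and the inhibitor Timp3 by 0.52. Mmp11 went opposite ways in the arms (0.80 and -0.64, adjusted p of the difference 0.00276). Htra1, a secreted serine protease, held at -0.08 in treated cells and was not called there, against -1.53 in untreated cells.

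Of 38 genes of integrins, focal adhesions and actin, 16 were higher (42.1%) and 2 lower (5.26%), beside 14.5% and 13.6% of all genes. In untreated cells 8 were higher and 5 lower. The difference between the arms was called above 0 for 8 and below 0 for none. Tnnt2 had 8.77 and 8.59 in treated cells at 10 h, against 6.41 and 6.50 at 0 h (2.23, SE 0.12, adjusted p 2.86e-11), with means of 6.45, 7.26, 8.61, 9.34 and 8.68 at 0, 1, 3, 6 and 10 h; 1 of its 3 probe sets was not called. Itgav, an integrin chain that releases latent TGFβ, had 12.09 and 12.05 in treated cells at 10 h, against 11.48 and 11.55 at 0 h (0.56, SE 0.05, adjusted p 1.11e-08), and the actin crosslinker Flna had 10.29 and 10.30 in treated cells at 10 h, against 9.73 and 9.69 at 0 h (0.59, SE 0.05, adjusted p 1.30e-08). Of the 5 probe sets of Itgav 3 were not called, and the lowest log2 difference among the 5 was -0.29. Cytoplasmic gamma-actin, Actg1, rose by 0.35. The smooth muscle genes Acta2, Tagln (0.05), Cnn1 (0.11) and Myl9 (0.24) were not called, and Tpm2 fell by 0.43.

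Of 30 EMT factors, junction genes and keratins 11 were higher, 2 were lower (Krt19 and Cldn12) and 17 were not called. The shares were 36.7% higher and 6.67% lower, beside 14.5% and 13.6% of all genes. Untreated cells had 6 members of the list higher and 2 lower. N-cadherin, Cdh2, had 10.21 and 10.16 in treated cells at 10 h, against 8.94 and 9.21 at 0 h (1.11, SE 0.07, adjusted p 4.40e-10), and rose further than in untreated cells (0.42, adjusted p of the difference 3.40e-04), while E-cadherin, Cdh1, was not called (-0.04). The tight junction protein Cldn3 had 11.08 and 11.06 in treated cells at 10 h, against 10.31 and 10.30 at 0 h (0.76, SE 0.06, adjusted p 2.30e-09). The desmosomal proteins Jup (0.61), Pkp2 (0.80), Dsp (0.52), Dsc2 (0.49) and Dsg2 (0.32) rose together with vimentin (Vim, 0.30) and the repressor Zeb1 (0.40). Snai1, Snai2, Twist1 and Zeb2 were not called. The epithelial adhesion molecule Epcam, a member of the bile duct markers, had 10.58 and 10.56 in treated cells at 10 h, against 9.54 and 9.57 at 0 h (1.01, SE 0.06, adjusted p 7.82e-11), and in untreated cells it changed by 0.71. Keratin 7, Krt7, rose by 0.54, against -0.30 in untreated cells (adjusted p of the difference 1.64e-04). The bile duct markers were split: of 5 measured, 2 were higher (Epcam and Krt7) and 2 lower. Sox9 changed by -0.31 and Krt19 by -0.54, and the list median was -0.01.

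Among 28 growth factors and binding proteins 6 were higher (21.4%) and 4 lower (14.3%), beside 14.5% and 13.6% of all genes. Pdgfb, a platelet-derived growth factor chain, had 7.26 and 6.93 in treated cells at 10 h, against 6.07 and 5.90 at 0 h (1.11, SE 0.10, adjusted p 4.58e-08), with means of 5.99, 9.08, 9.04, 8.07 and 7.09 at 0, 1, 3, 6 and 10 h that were highest at 1 and 3 h. Pdgfc had 9.77 and 9.70 in treated cells at 10 h, against 9.18 and 9.23 at 0 h (0.53, SE 0.05, adjusted p 1.28e-07) and went the other way in untreated cells (-0.35, adjusted p of the difference 2.23e-07). The receptor Pdgfra, measured as a marker of stellate cells, had 6.02 and 5.75 in treated cells at 10 h, against 7.08 and 7.24 at 0 h (-1.28, SE 0.13, adjusted p 1.59e-07), while untreated cells changed by -0.23 (adjusted p of the difference 0.00151). Fgf1 fell by 0.92 and Egf by 0.66.

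Chemokine and NF-kB genes had 8 of 30 members higher (26.7%) and 5 lower (16.7%), against 12 and none in untreated cells. Among all genes 14.5% were higher and 13.6% lower in treated cells. Cxcl10, an interferon-inducible chemokine, had 5.97 and 5.83 in treated cells at 10 h, against 7.10 and 6.99 at 0 h (-1.15, SE 0.09, adjusted p 5.20e-09), while untreated cells changed by -0.03 (adjusted p of the difference 1.07e-05). Its means were 7.05, 7.96, 9.20, 7.23 and 5.90 at 0, 1, 3, 6 and 10 h, highest at 3 h. Vcam1 (1.07), Cxcl16 (0.68) and Nfkbiz (0.62) rose in both arms with no difference called, and Lcn2 (lipocalin 2) rose with TGFβ1 (1.32 against -0.10, adjusted p of the difference 0.0305). Of 29 interferon and antigen presentation genes, 5 were higher (17.2%) and 8 lower (27.6%), against 8 higher and 7 lower in untreated cells. The 4 members named by lowest adjusted p were all falls. Gbp2 fell by 1.44, the RNA sensor Ddx58 (RIG-I) by 0.80, Xaf1 by 0.83 and Rsad2 by 0.84, and none of these 4 was called different from untreated cells.

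Liver-specific genes gave no common direction in treated cells. Of 50 secreted plasma proteins 9 were higher (18%) and 4 lower (8%), beside 14.5% and 13.6% of all genes. Without treated 10 h replicate 1 these 13 calls became 8. Cp (ceruloplasmin) had 12.22 and 12.56 in treated cells at 10 h, against 11.31 and 11.26 at 0 h (1.11, SE 0.07, adjusted p 2.95e-10), Proc (protein C) had 7.10 and 6.99 in treated cells at 10 h, against 5.66 and 5.71 at 0 h (1.36, SE 0.13, adjusted p 9.51e-08), and F11 had 6.88 and 6.84 in treated cells at 10 h, against 4.81 and 4.57 at 0 h (2.17, SE 0.17, adjusted p 2.62e-09). Afp fell by 0.46 (SE 0.05, adjusted p 2.64e-07), while untreated cells changed by 0.05 (adjusted p of the difference 7.61e-05). Untreated cells had 12 higher and 1 lower, and the difference was called above 0 for 2 members and below 0 for 6. In 3 of the genes below 0, treated cells stayed near their starting level while untreated cells rose: Alb (-0.07 against 0.51, adjusted p of the difference 4.53e-04), the fibrinogen chain Fgb (0.17 against 1.34, 9.25e-06) and Apoe (-0.02 against 0.43, 0.0419). The summed linear value of the 9 hepatocyte markers was 9844 to 10090 in treated cells at 10 h, against 11784 to 12600 at 0 h. Afp and Alb carry most of this sum, only Afp of the 9 was called lower, and the list median was -0.01.

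Of 42 conjugation enzymes and transporters 6 were higher (14.3%) and 7 lower (16.7%), close to the shares of all genes (14.5% and 13.6%), against 11 and 4 in untreated cells. The difference was called below 0 for 10 and above 0 for 1. Ugt2b35 had 5.97 and 5.95 in treated cells at 10 h, against 7.36 and 7.55 at 0 h (-1.49, SE 0.10, adjusted p 2.90e-10), while untreated cells changed by 0.09 (adjusted p of the difference 2.33e-07), and its relative Ugt2b34 fell by 1.87. The transporter Slco1b2 was not called in treated cells (-0.58) and changed by 1.73 in untreated cells (adjusted p of the difference 1.64e-04). The sulfotransferase Sult1c2 fell by 1.43 and the glutathione transferase Gstm1 by 0.53, whereas Tpmt, a thiopurine methyltransferase, rose by 1.23 in treated and by 0.87 in untreated cells.

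Of 35 cytochrome P450 genes 4 were higher and 4 lower (11.4% each way), no more than among all genes (14.5% and 13.6%). Cyp1a1, the main gene induced through the aryl hydrocarbon receptor, had 11.64 and 11.70 in treated cells at 10 h, against 13.10 and 13.09 at 0 h (-1.43, SE 0.10, adjusted p 9.39e-10), with means of 13.10, 12.64, 11.05, 10.22 and 11.67 at 0, 1, 3, 6 and 10 h, and untreated cells arrived at the same change (-1.43) without the deep minimum at 6 h. Cyp39a1, an oxysterol hydroxylase, rose by 1.19. Among 23 hepatocyte transcription factors 2 were higher (8.7%) and 4 lower (17.4%), near the shares of all genes, and without treated 10 h replicate 2 these 6 calls became 3. Nr2f2 fell by 0.49, the bile acid receptor Nr1h4 by 0.88 and Foxa2 by 0.24; Cebpd rose by 0.54, a call lost without treated 0 h replicate 1 (0.38) or treated 10 h replicate 2 (0.49), and Hnf4a was not called (-0.20).

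Of 18 urea cycle and amino acid genes 3 rose and none fell, and the share higher (16.7%) was close to that of all genes (14.5%). Fah, which breaks down tyrosine products, rose by 0.80, the urea cycle lyase Asl by 0.42 and Cps1 by 1.20. Cps1 was dim, with 5.26 and 5.25 in treated cells at 10 h, against 4.49 and 3.63 at 0 h. Of 15 genes of glycogen and gluconeogenesis 5 rose (33.3%) and 2 fell (13.3%), beside 14.5% and 13.6% of all genes. Without treated 0 h replicate 2 or without treated 10 h replicate 1 these 7 calls became 4. Ppp1r3b, a glycogen-targeting subunit of protein phosphatase 1, rose by 0.63, Pgm1 by 0.47, and the glucose transporter Slc2a2 (-1.13) and the branching enzyme Gbe1 (-0.85) were lower at dim levels.

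In both lists that serve the making of ribosomes, more members fell than rose, by small amounts. The shares lower were 65% for mitochondrial ribosomal proteins and 42.9% for ribosome biogenesis, beside 13.6% of all genes. Of 40 mitochondrial ribosomal proteins 26 were lower and 2 higher, with a median of -0.24, and Mrps25 had 8.85 and 8.89 in treated cells at 10 h, against 9.71 and 9.74 at 0 h (-0.86, SE 0.06, adjusted p 1.63e-09). Of 35 ribosome biogenesis genes 15 were lower and 3 higher, with a median of -0.15, and the nucleolar protein Nhp2 had 12.17 and 12.27 in treated cells at 10 h, against 12.69 and 12.74 at 0 h (-0.50, SE 0.05, adjusted p 4.03e-08). Fibrillarin (Fbl) fell by 0.39, and Mrps2 by 0.66. Untreated cells had 18 lower members in each of the 2 lists. Nucleolar genes reached this level early, the list median in treated cells being -0.16 at 3 h and -0.15 at 6 h, whereas the mitochondrial list stood at -0.03 and -0.12.

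In the integrated stress response, led by Atf4, 6 of 27 members were higher (22.2%) and 12 lower (44.4%). Among all genes 14.5% were higher and 13.6% lower. Untreated cells had 8 members of this list higher and 8 lower. Atf5 had 7.88 and 7.97 in treated cells at 10 h, against 8.81 and 8.83 at 0 h (-0.90, SE 0.07, adjusted p 2.33e-09), and the leucine transporter Slc7a5 had 9.41 and 9.21 in treated cells at 10 h, against 10.04 and 10.14 at 0 h (-0.78, SE 0.07, adjusted p 8.23e-09), a fall deeper than in untreated cells (-0.39, adjusted p of the difference 0.0166). The serine synthesis enzymes Phgdh, Psat1 and Psph fell by 0.30, 0.38 and 0.46, while Aldh18a1, of proline synthesis, rose by 0.55 and Vldlr by 0.79. Of 20 genes of the unfolded protein response 2 were higher (10%) and 8 lower (40%), against 4 and 3 in untreated cells. The endoplasmic reticulum chaperone Hspa5 (BiP) had 12.88 and 12.88 in treated cells at 10 h, against 13.29 and 13.24 at 0 h (-0.39, SE 0.04, adjusted p 1.27e-07), Herpud1 fell by 0.54, and Sdf2l1 fell by 0.58 with TGFβ1, against a change of 0.01 without it (adjusted p of the difference 0.00164).

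The last interval of the course shows which of these changes were still under way. Between 6 h and 10 h in treated cells 1980 genes were called (10.9%), 1066 higher (5.86%) and 914 lower (5.02%), a comparison that shares its 10 h arrays with the one above. Without treated 6 h replicate 1 the count was 1044, without treated 10 h replicate 1 it was 1179, and without treated 10 h replicate 2 it was 1152. The largest rises were those of Id3 (8.83 and 8.91 at 6 h, 1.52 to 10 h), Cyp1a1 (1.45), Angpt1 (1.44), Id2 (1.37), Tmem71 (1.18) and the glycogen regulator Ppp1r3c (1.14). Of these Angpt1 ended close to its start, with 6.37 and 6.60 in treated cells at 10 h, against 5.85 and 6.60 at 0 h, and Tmem71 and Cyp1a1 ended below it. Ppp1r3c, above its start by 0.36, lost that call without treated 0 h replicate 2 (0.28) or treated 10 h replicate 1 (0.33).

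The largest falls of the interval were those of Mt2 (by 2.29), Chst8 (by 2.13), Trbv1 (by 2.03), Pstpip1 (by 1.85), Ldlrad4 (by 1.66) and Lce1f (by 1.37). Chst8, a sulfotransferase, had means of 4.65, 4.83, 7.72, 6.85 and 4.72 at 0, 1, 3, 6 and 10 h, and Ldlrad4, a feedback inhibitor of TGFβ signalling, had 3.37, 3.27, 6.98, 5.83 and 4.17. Apart from Mt2 these genes were low at both ends of the course and higher in between, so that 10 h against 0 h shows little of them: Chst8, Trbv1 and Pstpip1 were not called over the 10 h. Replication genes were still falling, 20 of the 39 G1/S members being lower at 10 h than at 6 h and none higher, and in the SMAD list 7 were lower and none higher. In the hypoxia and p53 lists 14 and 12 members were higher at 10 h than at 6 h, and 1 and 0 were lower. Over all genes 5.86% were higher and 5.02% lower in this interval.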

How the data were processed

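The authors deposited log2 expression values for 20 Affymetrix arrays, made with RMA per the submitters' processing notes, for which the sources used here give no version or probe definitions. RMA subtracts background, normalizes by quantiles and summarises probes, so values are relative, and their precision is limited by the number of arrays. Array columns were matched to samples by accession. Probe sets were named from GEO's platform annotation, with symbols updated through RefSeq; 34945 of 45037 named 1 gene, 932 several and 9160 none. For each gene the probe set with the highest mean over all arrays was kept, giving 18193 genes.

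A limma model (version 3.58.1, R 4.3.3) with 1 mean for each of 10 groups, no replicate block and eBayes with a variance trend was fitted to the deposited log2 values of all arrays. P-values were adjusted by Benjamini-Hochberg over all genes, with a threshold of 0.05, and the script was tested on simulated data. The labels call the duplicates biological replicates and do not say whether cultures were set up on separate days. Same-numbered duplicates did not deviate together (45 pairs of groups, r between -0.20 and 0.21, 5 over 0.1), so the numbers were not taken to pair samples.

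Members and lists were chosen with earlier results of these data known. Lists held 953 symbols, of which 900 were measured; the rest were not analysed here. Genes were named by this rule: the 15 largest called rises and falls without overlap of the groups, up to 4 called members of each list by lowest adjusted p, the 6 largest each way with and without a called difference from untreated cells, the 6 largest each way between 6 and 10 h, the 6 largest called in opposite directions in the arms, and the defining markers. Unnamed gene models were left out. Other list members were picked after their values were seen. Alternatives were a further quantile normalization, centring on array medians, the mean of a gene's probe sets, every probe set on its own, genes above the median level, only the compared arrays, no variance trend, array weights, the replicate block, other starting arrays and leaving out each array. Array weights came out equal for the 2 arrays of each group, so that setting could not mark down a single array. Promoter windows (300 bases) are RefSeq's.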

Additional observations from a re-analysis of the deposited data

Results flagged for a closer look

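The genes below were picked out because limma called their change over 10 h different between treated and untreated cells; each value is the treated minus the untreated change on the log2 scale. Of 159 genes named by the rule, 61 met this condition.

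Among the genes with the largest changes, values above 0 were Fam210b 2.87, Ctla2a 2.52, Tnnt2 2.41, Ctla2b 2.32, Dram1 2.17, Tenm4 2.12, Serpinb7 2.06, Acsbg1 1.78, F11 1.51, Igfbp3 1.37, Col8a1 0.99 and Mycl 0.91. Values below 0 were Ugt2b34 -1.39, Aldoc -1.11, Sprr1a -0.99, Apela -0.87, Tk1 -0.62, Dhrs3 -0.61 and Msrb3 -0.37. Genes that went opposite ways in the arms also held Nrep 2.22 and Myot -1.58.

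In the TGFβ pathway the values were Ccn2 2.15, Skil 1.69, Ldlrad4 1.20, Bhlhe40 0.73, Klf10 0.44, Bmp4 0.50, Fst 0.36, Id3 -0.41 and Tgfbr3 -1.22. Genes of matrix, adhesion and junctions, with the YAP targets, had Ccn1 0.88, Cdh2 0.69, Plat 0.64, Ankrd1 0.63, Thbs1 0.59, Fn1 0.58, Jup 0.53, Flna 0.39, Cldn3 0.38, Mmp14 0.28, Itgav 0.27, Actg1 0.23 and P4ha1 -0.33. Growth factors, chemokines and cell death genes had Pdgfc 0.88, Pdgfb 0.81, Bcl2l11 0.59 and Cxcl10 -1.12. Liver and metabolic genes had Cps1 1.55, Afp -0.51, Nqo1 -0.59, Ppp1r3c -0.99 and Ugt2b35 -1.59.

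Cell cycle genes had Rrm2 -0.26, Mcm5 -0.28, Aurkb -0.34 and Cdkn2c -0.57, and stress response genes had Hspa5 -0.23, Slc7a5 -0.39 and Sdf2l1 -0.59. Genes of the interval between 6 and 10 h had Lce1f 1.02 and Tmem71 -0.61. No group had the 4 arrays that a search for outlying samples needs.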

How the results depend on the processing

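Called genes between treated 10 h and treated 0 h numbered 5099 as reported and 3958 to 4241 with 1 array left out. Other settings gave 4251 to 5698, and testing every probe set gave 7702, over more features. Untreated calls numbered 4742, 3527 to 3755 with 1 array left out, and 7229 with every probe set. The difference between the arms, 707 genes, was the least stable count: 365 to 586 with 1 array left out, 352 without a variance trend and 1662 when 10 h arrays alone were compared, which leaves out the 0 h arrays. Between treated 10 h and 6 h the count of 1980 became 1044 to 1344 with 1 array left out. The 0 h groups gave 0 calls under every setting run. With the replicate block, which pairs same-numbered samples, the counts were 5193, 4878, 770, 2104 and 0, none moved by over 1.5 times. The cause was not tested for any of these.

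Among 159 named genes 149 kept direction and side of the threshold in treated cells in every setting that gives 1 value a gene. Testing every probe set on its own is not such a setting. Some of the 149 had probe sets that were not called, for instance 4 of 6 for Nr2f2 and 3 of 5 for Itgav. Angpt1, not called at 0.26, ranged between -0.12 (without treated 0 h replicate 1) and 0.64 with 1 array left out, and Chst8, not called at 0.07, between -0.28 (without treated 10 h replicate 2) and 0.42. With the mean of the probe sets Tgfbr2, Cebpd, Pgm1, Scd2, Mrps26, Pdia4, Ppp1r3c and Lce1f lost their calls. Of the list counts, plasma proteins (13 calls) gave 8 without treated 10 h replicate 1 and 5 among genes above the median level, cytochrome P450 genes (8) gave 5 there, and glycogen genes (7) gave 4 with the mean of the probe sets or above the median level, where fewer genes are tested.

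The main limits are 2 arrays a group, an unknown background level, and values relative to each array, so that a shift shared by all genes cannot be seen.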
